A study of Rattus norvegicus with 64 samples.

Results

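RNA-Seq of the nucleus accumbens (ACB) was analyzed in female Sprague Dawley rats that had consumed acesulfame potassium (ACE-K) or water from the juvenile period to adulthood. The 16 ACB libraries of rats C107 to C122 were chosen by the sample labels, out of 64 libraries in the series. Of these rats, 8 were given ACE-K at about 15 mg/kg per day in a sipper tube from postnatal day 26 to postnatal day 80, and 8 control rats (CTL) were given water in the same way. All 16 rats were females of a single strain, were housed alone, had free access to chow and water, and were killed at postnatal day 80. Each library came from a tissue punch of 1 rat, and the estrous cycle of the females was not followed. The other libraries came from the ACB of 16 male rats and from the dorsal hippocampus (HPCd) of the same 32 rats, and they are used below only as a reference for the female ACB.

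The ACB is the ventral part of the striatum and takes part in motivation and in the response to rewarding tastes. Most of its neurons are GABAergic projection neurons that carry dopamine D1 or D2 receptors and opioid peptides, and they receive glutamatergic input from the cortex, hippocampus and amygdala. ACE-K is a sweetener that binds the sweet taste receptor and provides no calories. The question of the comparison was whether rats exposed to ACE-K early in life differ from controls in ACB gene expression as adults. The deposited tables list Ensembl gene IDs, and the sources used here do not pair these IDs with gene names. Genes are therefore given by ID, the lists of striatal, synaptic, dopamine and opioid genes drawn up for this tissue could not be applied, and the ACB label was not checked against marker genes.

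Total counts ranged from 255545 to 367094 per rat in the female ACB, against 14304052 to 28292936 in the HPCd of the same rats, and the median ID tested in the ACB was counted 7.88 times in a rat. These totals are reads assigned to IDs, not reads sequenced, and the authors give a single approximate read number for samples of both regions. Why fewer reads were assigned in the ACB was not tested. The strand setting of the counting is also not given, so an ID may count reads of its gene or of an antisense partner. The differences below are therefore differences in the counts of an ID. ACB totals averaged 328023 ± 28057 in ACE-K and 325506 ± 41401 in CTL females (SD, n = 8 each), and no difference in means was found (exact permutation test, 2-sided, p = 0.887). The number of IDs with at least 1 count was 10651 ± 259 in ACE-K and 10704 ± 554 in CTL females (SD, n = 8 each; exact permutation p = 0.816). The 10 most counted IDs held 42.9% ± 1.95 of the counts in ACE-K and 41.1% ± 2.06 in CTL females (SD, n = 8 each; exact permutation p = 0.097). The body weight in the labels at postnatal day 80 averaged 236.8 ± 18.1 in ACE-K and 237.6 ± 18.7 in CTL females (SD, n = 8 each; exact permutation p = 0.934). The smallest p of these 4 exact tests was 0.388 once adjusted by the Benjamini-Hochberg method. A single ID, ENSRNOG00000037911, chosen after its values were seen, had 674 to 1667 counts in every ACB library labelled female and at most 2 in every ACB library labelled male. In a principal component analysis (PCA) of the 16 libraries, rat C114 (ACE-K) lay at 28.9 on the first component, which held 11.3% of the variance, and the other rats lay between -19.9 and 12.4. Rat C107 (CTL) lay at 23.3 on the second component, which held 9.37%, and the others lay between -14.3 and 13.9.

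Across the genome, 2 of the 5154 IDs tested fell in ACE-K females and 0 rose at an adjusted p under 0.05, so that the test called 0.0388% of IDs (quasi-likelihood test of edgeR, Benjamini-Hochberg method). An ID was tested when its normalized count was at least 5 in at least 3 rats. Without adjustment, 436 IDs (8.46%) had a p under 0.05. Of these, 325 also had a fold change of 0.4 or more on the log2 scale in either direction, and are called suggestive differentially expressed genes (DEGs) here, by the thresholds in the methods. They made 6.31% of the IDs tested. Counts were higher in ACE-K females for 180 of the suggestive DEGs (3.49% of IDs tested) and lower for 145 (2.81%). The remaining IDs with an unadjusted p under 0.05 had smaller fold changes. The log2 fold changes of the higher DEGs ranged from 0.40 to 1.5 with a median of 0.72, those of the lower DEGs ranged from -1.76 to -0.40 with a median of -0.72, and the median over all IDs tested was 0.00. For no ID did the CPM (counts per mega counts of the normalized library) of the 8 ACE-K rats lie entirely above or entirely below that of the 8 CTL rats, which is 0% of IDs tested. DESeq2, the program the authors used, gave 324 of the same IDs at an unadjusted p under 0.05. By the same thresholds, 230 of them were suggestive DEGs, 137 higher and 93 lower in ACE-K females. It gave 0 IDs at an adjusted p under 0.05, but its default filtering leaves some IDs out of the adjustment.

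**Figure D1:**
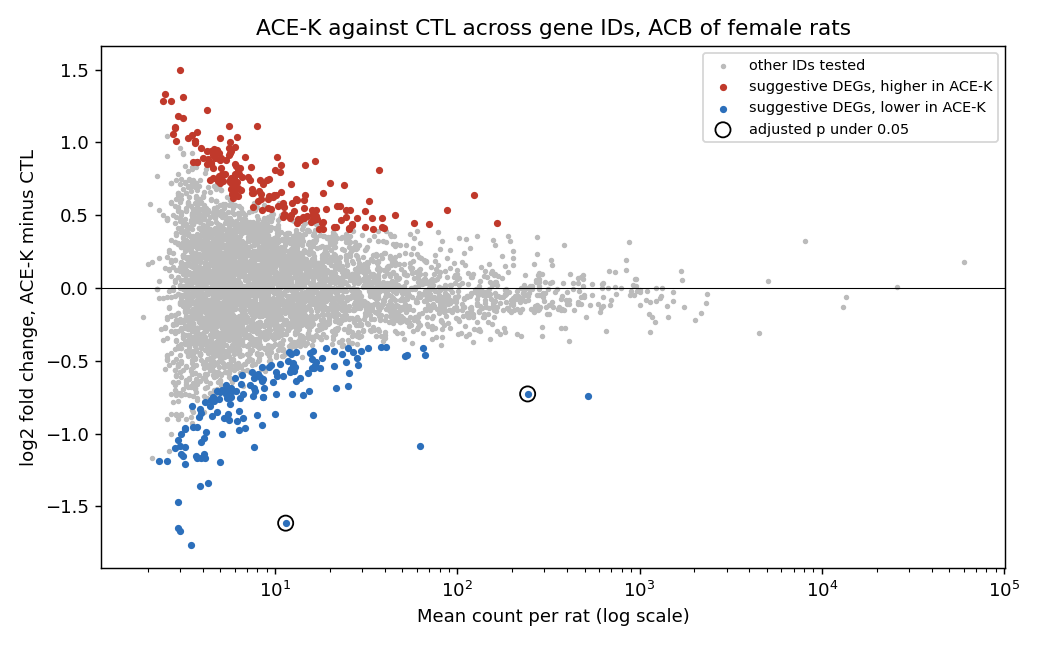
Each point is 1 of the 5154 gene IDs tested in the ACB of female rats, plotted by its mean count per rat (log scale) and its log2 fold change between ACE-K and CTL rats. Colored points are the 180 suggestive DEGs higher and the 145 lower in ACE-K rats, and circles mark the 2 IDs with an adjusted p under 0.05, both below 0.

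The ID with the smallest p, ENSRNOG00000017858, was counted at 377 CPM in the lowest, 559 in the median and 745 in the highest ACE-K female, and at 525, 804 and 1729 CPM in the lowest, median and highest CTL female. The groups overlapped, although 3 ACE-K females (C114, C118 and C122) lay below every CTL female. The CTL rat C107 had 1729 CPM from 657 counts, whereas no other CTL female exceeded 1010 CPM. Means were 552 ± 131 CPM in ACE-K and 909 ± 360 CPM in CTL females (SD, n = 8 each), a log2 fold change of -0.73 (SE 0.15, unadjusted p = 8.15e-06, adjusted p = 0.0417, edgeR). Without rat C107 the log2 fold change was -0.53 and the adjusted p was 0.121 (edgeR). The adjusted p was also above the threshold, at up to 0.128, without C110, C115, C118, C119, C120 or C122, while the log2 fold change stayed between -0.81 and -0.53 in all 16 fits that left out 1 rat. With the first principal component as a covariate the adjusted p was 0.051.

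The second ID that fell, ENSRNOG00000013433, had only 2 to 11 counts in each ACE-K female and 4 to 48 in each CTL female. This was 6.45 CPM in the lowest, 15.5 in the median and 34.1 in the highest ACE-K female, against 16.1, 37.5 and 124 CPM in the lowest, median and highest CTL female. The groups overlapped, 4 ACE-K females (C110, C114, C118 and C120) lay below every CTL female, and the CTL rats C115 (94.7 CPM) and C119 (124 CPM) lay far above the other females. Means were 16.8 ± 8.67 CPM in ACE-K and 50.8 ± 38.4 CPM in CTL females (SD, n = 8 each), with a log2 fold change of -1.62 (SE 0.34, unadjusted p = 1.62e-05, adjusted p = 0.0417, edgeR). Leaving out C119 gave a log2 fold change of -1.25 and an adjusted p of 0.151, and leaving out C115 gave -1.45 and 0.222 (edgeR). The call was also lost without C107, C110, C114, C116, C118 or C120, and the log2 fold change lay between -1.84 and -1.25 in the 16 fits.

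Among the DEGs higher in ACE-K females, none passed the adjusted threshold. ENSRNOG00000008943 had the smallest p of them, and it was counted at 64.1 CPM in the lowest, 160 in the median and 191 in the highest ACE-K female, against 57.0, 80.2 and 122.2 CPM in the lowest, median and highest CTL female. Of the 8 ACE-K females, 6 lay above every CTL female, and rat C112 was the only one below the CTL median. Means were 146 ± 42.1 CPM in ACE-K and 83.8 ± 23.9 CPM in CTL females (SD, n = 8 each), with a log2 fold change of 0.81 (SE 0.18, unadjusted p = 3.44e-05, adjusted p = 0.0591, edgeR). When each rat was left out in turn, the log2 fold change lay between 0.74 and 0.92 and the adjusted p between 0.00444 and 0.248, under the threshold in 4 of 16 fits (without C108, C112, C117 or C121) and not in the other 12. The next, ENSRNOG00000017939, was counted at 336, 424 and 744 CPM in the lowest, median and highest ACE-K female and at 181, 266 and 482 CPM in the lowest, median and highest CTL female. Its CTL values fell into 6 rats between 181 and 280 CPM and the rats C121 (419 CPM) and C117 (482 CPM), which lay among the ACE-K females. The log2 fold change was 0.64 (SE 0.15, unadjusted p = 7.33e-05, adjusted p = 0.0944, edgeR), and without the ACE-K rat C114, which had 744 CPM, it was 0.51 (adjusted p = 0.262, edgeR). Over the 16 fits that left out 1 rat, its adjusted p lay between 0.00989 and 0.262, and it was under the threshold in 3 (without C108, C117 or C121) and not in the other 13. With the first principal component as a covariate, the log2 fold change was 0.38 and the adjusted p 0.527. Body weight as a covariate gave an adjusted p of 0.0263 for ENSRNOG00000008943 and 0.0260 for ENSRNOG00000017939 (edgeR). Both IDs were also under the threshold without a filter. Of 25 alternative fits, 6 put ENSRNOG00000008943 and 5 put ENSRNOG00000017939 under it.

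**Figure D2:**
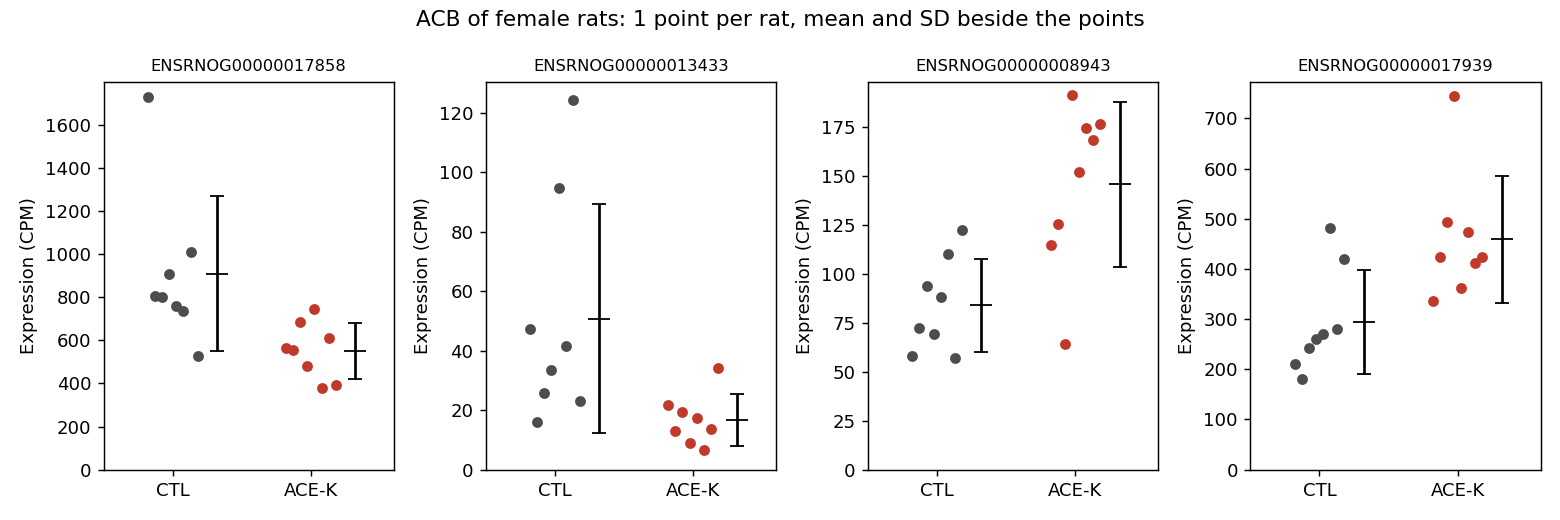
Counts in CPM of the 2 IDs that fell (left) and of the 2 higher suggestive DEGs with the smallest p (right) in the ACB of 8 CTL and 8 ACE-K female rats, with 1 point per rat and the mean and SD beside the points. CTL rat C107 stands apart for ENSRNOG00000017858 at 1729 CPM, and ACE-K rat C114 for ENSRNOG00000017939 at 744 CPM.

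The same IDs were then examined in the ACB of male rats, which share no library with the female comparison. ENSRNOG00000017858 was at 925 ± 522 CPM in ACE-K males and 570 ± 214 CPM in CTL males (SD, n = 8 each), a log2 fold change of 0.70 (SE 0.25, unadjusted p = 0.00834, adjusted p = 0.975, edgeR). The log2 fold change in males was 0.71 (SE 0.50) for ENSRNOG00000013433, -0.29 (SE 0.25) for ENSRNOG00000008943 and -0.30 (SE 0.18) for ENSRNOG00000017939, each with an adjusted p of 0.975 (edgeR). All 4 estimates thus had the sign opposite to that in females. The ACE-K males C92 and C102 lay outside the range of the CTL males for all 4 IDs, in the direction of the estimate. For ENSRNOG00000013433 they had 71.4 and 49.5 CPM. Its median was 8.82 CPM in ACE-K and 14.6 CPM in CTL males, which is the direction seen in females. For the other IDs, the male medians differed in the direction of the estimate. How far the male estimates rest on C92 and C102 was not tested. The difference between the sexes was tested in a fit of the 4 ACB groups. The log2 fold change in females minus that in males was -1.45 for ENSRNOG00000017858 (SE 0.32, unadjusted p = 2.56e-05) and -2.33 for ENSRNOG00000013433 (SE 0.64, unadjusted p = 0.000539). It was 1.08 for ENSRNOG00000008943 (SE 0.32, unadjusted p = 0.00149) and 0.92 for ENSRNOG00000017939 (SE 0.25, unadjusted p = 0.0006). Adjusted over all IDs, these interaction p values were 0.134, 0.214, 0.269 and 0.214 (edgeR). Since the IDs were chosen for their difference in females, their interaction estimates are not independent of that choice. Over all 5950 IDs tested, 511 (8.59%) had an unadjusted interaction p under 0.05 and 0 (0%) an adjusted p under 0.05 in edgeR. DESeq2 gave 464 and 0, the latter after its default filtering. The smallest adjusted interaction p was 0.134 in edgeR and 0.0516 in DESeq2. In edgeR it was 0.0559 without the male rat C106 and 0.175 with 10 counts in every rat.

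In the HPCd of the same females, ENSRNOG00000017858 was at 12.9 ± 1.08 CPM in ACE-K and 12.8 ± 0.909 CPM in CTL rats (SD, n = 8 each), with a log2 fold change of 0.00 (SE 0.06, adjusted p = 1.00, edgeR). ENSRNOG00000008943 was at 29 ± 3.57 and 29.1 ± 2.78 CPM (SD, n = 8 each; log2 fold change 0.00, SE 0.07, adjusted p = 1.00, edgeR), and ENSRNOG00000017939 was at 1181 ± 74.6 and 1117 ± 104.3 CPM (SD, n = 8 each; log2 fold change 0.08, SE 0.06, adjusted p = 0.989, edgeR). ENSRNOG00000013433 had 0 to 2 counts per library in the HPCd and was not tested there. Of the 15651 IDs tested in the HPCd of females, 1.32% were suggestive DEGs and 4.06% had an unadjusted p under 0.05. The HPCd and ACB comparisons share their rats. Whether the difference in the ACB differs from that in the HPCd was not tested. Levels of the IDs in CTL males were nearly uncorrelated between the ACB and HPCd counts (Spearman correlation -0.03, given below). Whether an ID counts the same transcript in both was not tested. HPCd values near 0 therefore do not show that a difference is limited to the ACB.

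**Figure D3:**
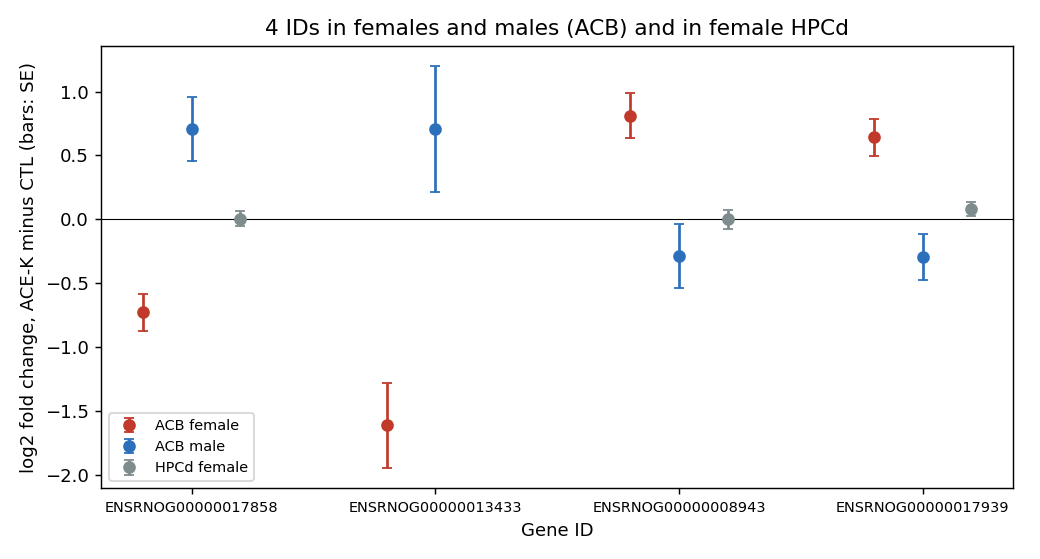
The log2 fold change between ACE-K and CTL rats, with its SE, of the 4 IDs in the ACB of females, the ACB of males and the HPCd of the same females. Female and male ACB values lie on opposite sides of 0 for each ID, the 3 HPCd values lie between 0.00 and 0.08, and ENSRNOG00000013433 has no HPCd value because it was not tested there. Whether an ID counts the same transcript in the ACB and the HPCd was not tested.

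The suggestive DEGs as a whole were next described in each rat, as the median over the DEGs of log2 CPM minus the mean of the 16 rats. Over the 180 higher DEGs, this median lay between 0.16 (C112) and 0.52 (C114) in ACE-K females and between -0.46 (C107) and -0.12 (C121) in CTL females. Over the 145 lower DEGs, it lay between -0.40 (C122) and -0.07 (C112) in ACE-K females and between 0.17 (C121) and 0.38 (C107) in CTL females. Both the separation of the groups and the place of an outlying rat within its group follow in part from how the DEGs were chosen, and neither is a test. C107 was the lowest CTL rat for 48 of the 180 higher DEGs and the highest CTL rat for 29 of the 145 lower DEGs, the most of any CTL rat for either. C114 was the highest ACE-K rat for 51 of the higher DEGs and the lowest for 32 of the lower DEGs, again the most of its group. These are the rats that lay farthest out on the first and the second component of the PCA. Of the 325 DEGs, 222 were found again without C107 and 233 without C114. Without both, 243 suggestive DEGs were found, of which 187 were among the 325. The 1 ID with an adjusted p under 0.05 in that fit was neither of the IDs called with all rats, whose adjusted p values were 0.117 for ENSRNOG00000017858 and 0.0908 for ENSRNOG00000013433 (edgeR). In the 16 fits that each left out 1 rat, 274 to 347 suggestive DEGs were found, and 32.9% of the 325 (63 higher and 44 lower) were suggestive DEGs in every such fit. The lowest count was without C107.

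**Figure D4:**
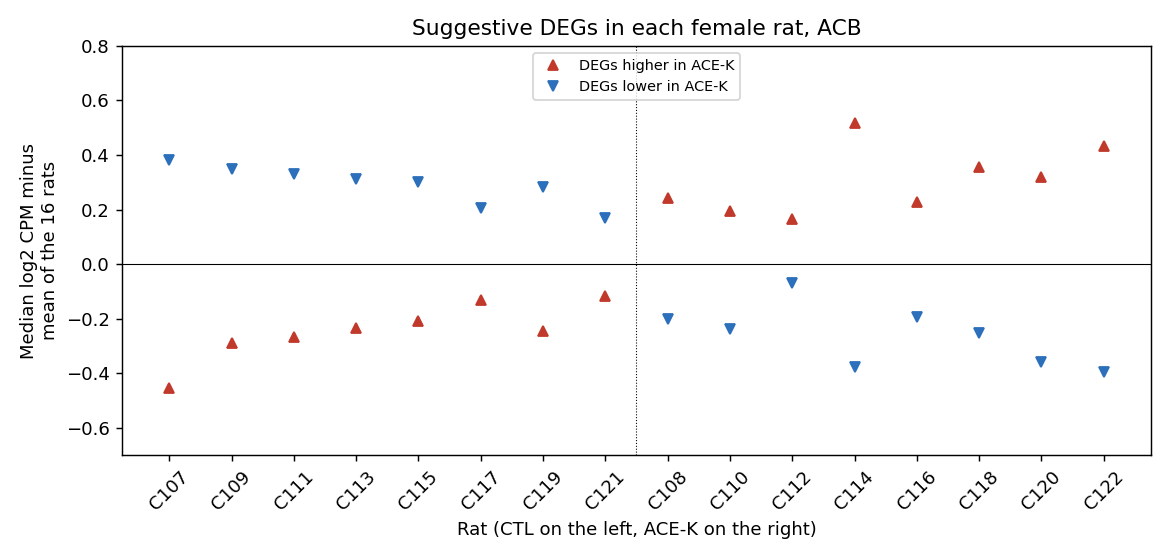
For each of the 16 female rats, the median over the 180 higher (triangles up) and the 145 lower (triangles down) suggestive DEGs of log2 CPM minus the mean of the 16 rats. The groups separate because the DEGs were chosen by their difference, and within the groups C107 (CTL) and C114 (ACE-K) lie farthest from 0 for the higher DEGs.

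The share of IDs that were suggestive DEGs varied with how often an ID was counted. Among IDs with a mean of under 5 counts per rat, 81 of 1497 were DEGs (5.41%) and the median SE of the log2 fold change was 0.41. The share was 7.46% at 5 to under 10 counts (67 higher and 47 lower of 1529), 8.42% at 10 to under 20 (78 of 926) and 6.49% at 20 to under 50 (40 of 616). Among IDs with 50 counts or more, 12 of 586 were DEGs (2.05%), 5 higher and 7 lower, with a median SE of 0.11. The fold changes of the DEGs narrowed with the SE, from a median size of 1.00 on the log2 scale in the lowest of these classes to 0.46 in the highest. This follows in part from the call rule, since an ID with a larger SE needs a larger fold change for a p under 0.05. In all, 195 of the 325 DEGs (60.0%) had a mean of under 10 counts per rat, as did 58.7% of all IDs tested. When 10 counts were required in each of the 16 rats, 1287 IDs were tested and 49 were suggestive DEGs, 27 higher and 22 lower. Of these 1287 IDs, 159 had an unadjusted p under 0.05, against 436 of 5154 (8.46%) with the main filter (edgeR). Those of the 159 that were not DEGs had log2 fold changes under 0.4 in size. Among IDs with 10 counts in every rat, few DEGs thus did not mean few IDs with an unadjusted p under 0.05. For the IDs with a mean of 50 counts or more, the share at that p was not computed.

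Males were not used to choose the female DEGs, so their values for these IDs were set beside those of all IDs. Of the 180 higher DEGs, 173 were tested in males, with a median male log2 fold change of -0.19, and 45 (26.0%) had a male log2 fold change above 0. Of the 145 lower DEGs, 136 were tested in males, with a median of 0.09, and 84 (61.8%) were above 0. Over all 5262 IDs tested in males, of which 4.12% were suggestive DEGs and 4.41% had an unadjusted p under 0.05, the median was -0.01 and 48.7% were above 0. The ACE-K male C106 and the CTL male C101 stood apart from their groups in the class shares given further on. The medians were -0.18 for the higher and 0.10 for the lower DEGs without C106. Without C101, they were -0.11 and 0.06, with 34.3% and 59.7% of these DEGs above 0 and 50.9% of all IDs tested. Leaving out C106 or C101 here was chosen after the data were seen. In the HPCd of the same females, whose rats are those that chose the DEGs, 126 of the 176 higher DEGs tested (71.6%) had a log2 fold change above 0, with a median of 0.03. For the lower DEGs these were 65 of 123 (52.8%) and 0.01, and for all IDs tested in the HPCd 52.2% and 0.00. The DEGs could come only from IDs tested in the ACB. The share above 0 in the HPCd among those IDs was not computed, so the 71.6% has no matched background here.

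The levels of the ACB table differed widely from those of the HPCd table. The most counted ID of the female ACB, ENSRNOG00000029042, held 14.8% to 24.6% of the counts of each library, with 19.6% ± 2.59 in ACE-K and 17.4% ± 1.83 in CTL females (SD, n = 8 each; log2 fold change 0.18, SE 0.08, unadjusted p = 0.0247, adjusted p = 0.510, edgeR), and a mean of 0.00913% of the counts in the HPCd of the same rats. Across the 5154 IDs, mean CPM in the ACB and HPCd of CTL males, which are in no female comparison, had a Pearson correlation of -0.11 on a log2(CPM + 0.5) scale and a Spearman correlation of -0.03. These are correlations across IDs, which are not independent replicates, and the shared rats, the length of each ID and the 2 separately counted tables bear on them. At least 10 times the HPCd level was found in the ACB for 994 of the IDs tested (19.3%), and at most 0.1 of the HPCd level for 747 (14.5%). The strand setting of the counting is not given in the sources used here, so that reads from a gene and from an antisense partner on the other strand cannot be told apart in these IDs. In bulk tissue, fewer cells of a type and less RNA per cell also cannot be told apart.

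The higher and lower DEGs fell differently over these classes. The median log2 ratio of the ACB to the HPCd level in CTL males was -2.40 for the 180 higher DEGs and 0.52 for the 145 lower DEGs, against -1.27 for all IDs tested. Among the IDs with at least 10 times the HPCd level, 11 of 994 were higher DEGs (1.11%) and 39 were lower DEGs (3.92%), and the median log2 fold change in females was -0.08. Among the IDs with at most 0.1 of the HPCd level, 41 of 747 were higher DEGs (5.49%) and 12 were lower DEGs (1.61%), with a median log2 fold change of 0.07. These 2 classes also differed in how often their IDs were counted, with a median of 27.7 and 5.5 counts per rat. Of the higher DEGs, 6.11% were in the first class, but 2.68% without C107, 3.31% without C119 and 3.53% without C113, and 10.2%, 10.8%, 11.3% and 11.9% without C111, C112, C121 and C114. Of the lower DEGs, 26.9% were in it, and 24.8% to 31.97% when each rat was left out. The median log2 fold change of this class was -0.04 without C114. When each rat was left out in turn, the median ratio lay between -2.66 and -2.19 for the higher and between 0.27 (without C114) and 0.99 (without C108) for the lower DEGs, and without both C107 and C114 it was -2.43 and 0.14. With the first principal component as a covariate, the order turned around, with 0.51 for the higher and -1.46 for the lower DEGs. ACE-K females lay between -12.1 and 28.9 on this component and CTL females between -19.9 and 1.69, and its part in the pattern was not tested further.

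**Figure D5:**
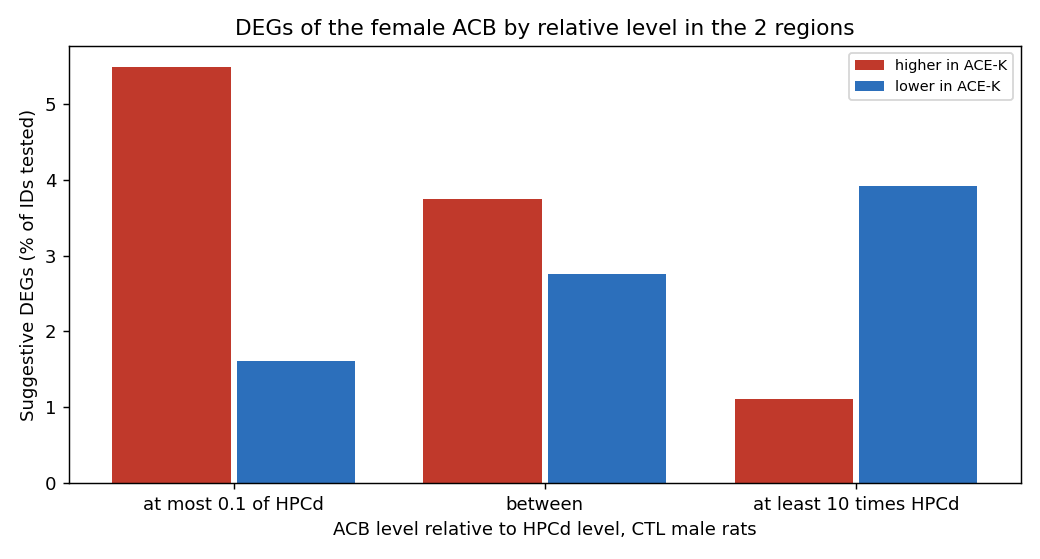
Share of IDs tested that were suggestive DEGs higher (red) or lower (blue) in ACE-K females, in 3 classes of the ratio of the ACB to the HPCd level in CTL male rats. Higher DEGs made 5.49% of the class at most 0.1 of the HPCd level and 1.11% of the class at least 10 times that level, and lower DEGs made 1.61% and 3.92%.

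Each library was then summed over these classes, leaving out the 10 most counted IDs. IDs at least 10 times over the HPCd level held 54.8% to 61.2% of the counts in ACE-K females (median 58.9%) and 58.0% to 61.3% in CTL females (median 59.8%). Between the means of 58.5% ± 1.91 and 59.7% ± 1.17 (SD, n = 8 each), no difference was found (exact permutation test, 2-sided, p = 0.163, adjusted p = 0.360 over 4 tests). The lowest of all females was again C114 with 54.8%. IDs at most 0.1 of the HPCd level held 4.84% ± 0.608 in ACE-K and 4.465% ± 0.453 in CTL females (SD, n = 8 each; exact permutation p = 0.180, adjusted p = 0.360). In males, the shares were 59.8% ± 2.75 and 59.3% ± 2.85 for the first class (exact permutation p = 0.656, adjusted p = 0.874) and 4.32% ± 0.291 and 4.36% ± 1.05 for the second (SD, n = 8 each; exact permutation p = 0.942, adjusted p = 0.942). The classes and these sums were chosen after the data were seen. The CTL males whose levels defined the classes are also in the male comparison, which is therefore not independent of that choice.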

How the data were processed

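RNA of ACB and HPCd punches was made into libraries with a NuGen Universal Plus mRNA-seq kit and sequenced in single reads. The authors used FastQC, Trimmomatic, STAR with the Rnor6.0 genome and HTSeq, and deposited raw counts per Ensembl gene ID, with one column per rat; versions, annotation release and strand setting are not given in the sources used here. Columns were assigned by the animal number, and 5 HTSeq summary rows of the HPCd table were left out. Labels name no batch for the ACB, and all 16 libraries were kept, although the authors removed 1 unnamed ACE-K library of the ACB. Within each group, pairs of rats differed beyond sampling noise (chi-square per degree of freedom at least 1.96 in 56 pairs, over IDs with at least 50 counts in a pair).

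From the deposited counts, edgeR (version 4.0.16, R 4.3.3) was used for TMM normalization, dispersions and the quasi-likelihood test (prior count 0.125), and each SE is the absolute log2 fold change divided by the root of F. DESeq2 (version 1.42.0) was an alternative. In edgeR, p values were adjusted over all IDs tested. DESeq2 adjusted them after its default filtering, which leaves some IDs without an adjusted p, so its adjusted counts are not over the same IDs. PCA used log2 CPM with a prior count of 2. Alternatives were DESeq2, its size factors in edgeR, library sizes without the 10 most counted IDs, other filters, a fit of the 4 ACB groups, the first principal component or body weight as a covariate, and leaving out rats. Single values were compared by exact permutation of the 12870 splits. The rats, lists and tests were chosen with earlier results of these data known. The naming rule was to give every ID with an adjusted p under 0.05, the 10 higher and 10 lower DEGs with the smallest p, the 5 most counted IDs and members of gene lists. Since IDs carry no names here, it was cut to 2 lower and 2 higher DEGs and the most counted ID, and gene lists and mitochondrial shares were not analysed here.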

Additional observations from a re-analysis of the deposited data

Results flagged for a closer look

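A sample far from the others of its group was looked for in 40 groups of 8 rats, by Dixon's 95% critical value for the gap to the nearest rat divided by the range, and 5 groups held one; chance gives about 1 in 20. In the ACB of CTL females, C107 had 1729 CPM of ENSRNOG00000017858, and the others had 525 to 1010 (gap 0.597 of the range). In ACE-K females, C114 had 744 CPM of ENSRNOG00000017939, and the others had 336 to 494 (0.613). In CTL males, C101 had 535 CPM of the same ID, and the others had 340 to 411 (0.639). C101 also had 52.8% of its counts outside the 10 most counted IDs on IDs with at least 10 times the HPCd level, against 58.1% to 61.6% in the other CTL males (0.599). The ACE-K male C106 had 53.5% on these IDs, against 59.2% to 61.7% in the other ACE-K males (0.698).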

How the results depend on the processing

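The count of 2 IDs with an adjusted p under 0.05 was the least stable result. It was 0 with DESeq2, 0 with at least 10 counts in every rat (159 at an unadjusted p under 0.05), 0 in one fit of the 4 ACB groups (360), 1 with the first principal component as a covariate, 5 with body weight as a covariate, 8 without a filter and 1 without C107 and C114, an alternative chosen after the data were seen in which that ID was another one and both calls were lost. Leaving out each rat gave 0 to 5, and it was 0 without C107, C110, C115, C118, C119 or C120 (374 to 457 at an unadjusted p under 0.05). ENSRNOG00000017858 lost its call without these 6 rats or C122, and ENSRNOG00000013433 without these 6, C114 or C116. With the first principal component as a covariate, the former lost its call and the latter kept it (adjusted p 0.051 and 0.011). Adjusted p values of the 2 IDs lay between 0.00196 and 0.128 and between 0.0097 and 0.222 over the 16 fits. In the fit of the 4 groups, both had an adjusted p of 0.782, and all 4 IDs given above kept their direction under every alternative in which they were tested and had an adjusted p. For ENSRNOG00000013433, this leaves out DESeq2, which gave no adjusted p, and the requirement of 10 counts. Suggestive DEGs numbered 1048 (531 higher, 517 lower) without a filter, when 17698 IDs were tested, and 49 (27 and 22) with 10 counts in every rat, when 1287 were tested. DESeq2 gave 230 suggestive DEGs in place of 325, with 137 higher in place of 180 and 93 lower in place of 145. The cause was not tested. The first principal component as a covariate gave 274 DEGs, of which 156 were among the 325. The interaction had 150 IDs at an unadjusted p under 0.05 with 10 counts in every rat, of 1124 tested. Medians in place of means turned the difference in total count between ACE-K and CTL females from 2516 to -11486 (exact permutation p = 0.815). No paired analysis was possible because the labels number rats and do not match ACE-K with CTL rats. Gene lists and the mitochondrial share were not run, since IDs have no names here. The low counts limit which differences can be called, since the median ID had 7.88 counts per rat and IDs with 5 to under 10 counts had a median SE of 0.30. These are counts assigned to IDs and do not measure how deeply the ACB was sequenced.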
